A study of Arabidopsis thaliana with 9 samples.

Results

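The genes described here are the aliphatic glucosinolate pathway of Arabidopsis thaliana together with the core enzymes that it shares with the indole branch. They were chosen by locus identifier, without a threshold on measured values. The set holds 3 transcription factors, 9 genes of side-chain elongation, 8 genes of the core steps assigned to aliphatic substrates, 4 shared core enzymes, 7 genes of side-chain modification and 2 transporters. All 33 genes were present among the 25199 loci of the expression table, and 32 of them were among the 19740 loci that were tested. The remaining gene, the transcription factor MYB76, did not reach 1 FPKM (fragments adjusted for transcript length and library size) in at least 3 libraries, which the test required. MYB29 passed that filter only through its wild-type values, so its difference from wild type was favoured by the filter. AOP3 passed it only through the RAV1 over-expression and bes1-D libraries, so its differences from wild type were favoured too.

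RNA sequencing was applied to whole seedlings of 3 genotypes, all labelled as being in the Enkheim (En2) background and 7 days old. The groups were a line over-expressing RAV1, a transcription factor with AP2 and B3 DNA-binding domains, the gain-of-function mutant bes1-D of the brassinosteroid-pathway transcription factor BES1, and the En2 wild type. Each group had 3 libraries that the labels call biological replicates, and nothing further says how they were separated. Seedlings were grown on plates without treatment at 22 °C with 16 h of light and 8 h of darkness. Which promoter drives RAV1, or whether several independent lines were sampled, is not given in the sources used here. From its title, the series asks how RAV1 and BES1 jointly regulate genes of growth and defence, and the glucosinolate genes belong to the defence side of that question.

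Glucosinolates are sulfur-rich thioglucosides of the cabbage order that are cleaved by myrosinases when tissue is damaged, which releases compounds toxic to herbivores and microbes. The aliphatic ones are made from methionine: its side chain is first lengthened in cycles that resemble leucine synthesis, the elongated amino acid is then turned into the glucosinolate core by cytochromes P450, glutathione conjugation, C-S cleavage, glucosylation and sulfation, and the side chain is finally modified. MYB28, MYB29 and MYB76 are the known activators of these genes, and the transporters GTR1 and GTR2 move the finished compounds between cells and organs.

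The libraries differed in ways that bear on all values given here. RAV1 itself measured 1064, 756 and 1426 FPKM in the over-expression libraries (replicates 1 to 3), between 33.2 and 58.3 FPKM in bes1-D and between 71.4 and 99.0 FPKM in En2 wild type, which matched the label of the line. Within the over-expression group, replicate 3 had the lowest value for 27 of the 33 genes and replicate 2 the highest for 25. Within the wild type, replicate 3 was the lowest for 27 of the 33 and replicate 1 the highest for 20. A set of 9 seed maturation markers summed to 435, 132 and 1618 FPKM in the RAV1 over-expression libraries (replicates 1 to 3). Their sums were 18.0 to 29.5 FPKM in bes1-D and 14.4 to 32.2 FPKM in wild type. The 6 that could be tested were called higher in RAV1 over-expression than in wild type, beside 15% of all loci tested. EM1 and PAP85 passed the filter only through their over-expression values. The sum of 5 leaf photosynthesis markers was 20358, 24162 and 17229 FPKM in RAV1 over-expression, 38549 to 42901 FPKM in bes1-D and 34228 to 36381 FPKM in wild type. All 5 were called lower in RAV1 over-expression than in wild type, beside 8.01% of all loci tested. The 6 root markers summed to 58.9 to 67.5 FPKM in RAV1 over-expression, 33.3 to 42.3 FPKM in bes1-D and 58.9 to 62.7 FPKM in wild type. Of these 6, EXPA7, SCR and SHR were called higher and PHT1;1 and NRT2.1 lower in RAV1 over-expression, and PHT1;1 and EXPA7 were called lower in bes1-D. No marker of the 3 lists was at 0 throughout, although the seed storage gene CRB was at 0 in all wild-type libraries and SESA1 in all bes1-D libraries. The part that these differences between libraries have in the results was not tested, and in whole seedlings fewer cells of a type and less RNA per cell cannot be told apart.

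Across the pathway, most transcripts were lower in RAV1 over-expression than in wild type at every stage up to the finished core, and AOP3 and the transporter GTR1 were higher. Of the 32 tested genes, 23 were called lower and 2 higher at a Benjamini-Hochberg adjusted p under 0.05 (limma, all loci tested), and 7 were not called. Without MYB29, whose difference the filter favoured, 22 of 31 were called lower. The filter also favoured AOP3 among the higher genes. Over all loci tested, 8.01% were called lower and 15% higher in that comparison. The median log2 change was -0.73 for the 32 genes, beside 0.09 for all loci tested. In bes1-D against the same wild-type libraries, 8 genes were called lower, none higher and 24 were not called, where 5.77% of all loci were called lower and 2.19% higher. Without MYB29, 7 of 31 were called lower in bes1-D. AOP3 was the only gene above wild type at an unadjusted p under 0.05 in bes1-D. The median log2 change was -0.32 in bes1-D, beside -0.06 for all loci. Set directly against bes1-D, RAV1 over-expression was lower for 12 genes, higher for 4 and not called for 16, where 10.6% of all loci were called lower and 28% higher. The median log2 difference of the 32 genes was -0.26, beside 0.19 for all loci.

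**Figure D1:**
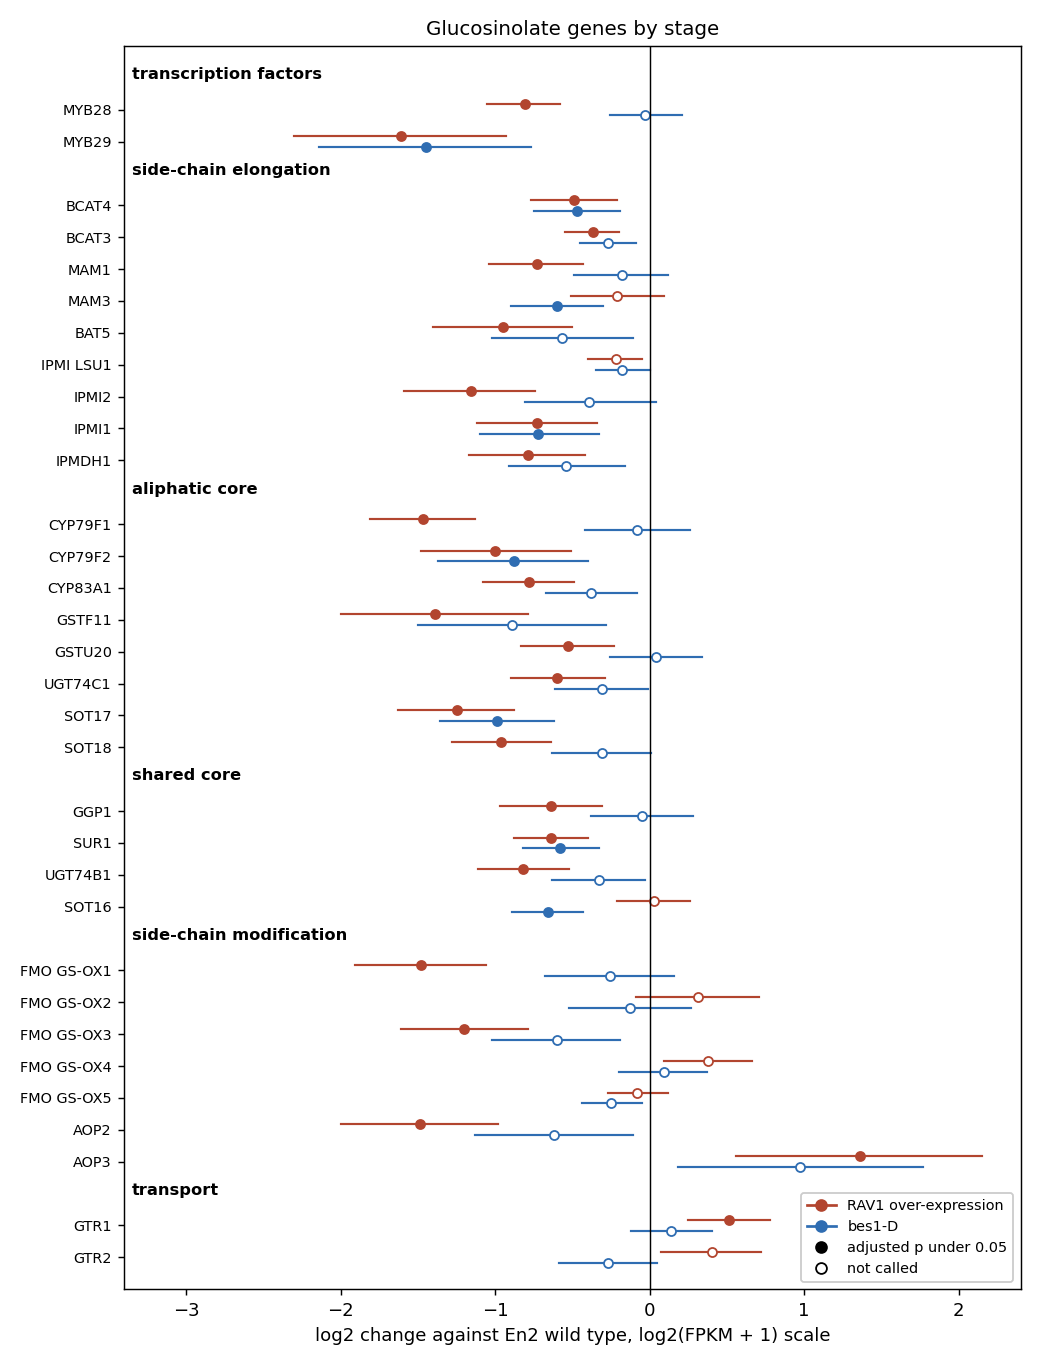
Log2 change of each of the 32 tested genes against En2 wild type on the log2(FPKM + 1) scale, by stage, with RAV1 over-expression above bes1-D for each gene and 95% confidence intervals from limma as bars. Filled points have an adjusted p under 0.05; all 8 genes of the aliphatic core are filled to the left of 0 in RAV1 over-expression, and 2 of them are in bes1-D.

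Both comparisons with wild type use the same 3 wild-type libraries, so their values are set side by side here and their overlap is not offered as a result. The number of genes called lower in bes1-D depended on single libraries. It was 2 without En2 wild type replicate 2, 3 without wild type replicate 1 or bes1-D replicate 2, 4 without bes1-D replicate 1 or 3, 5 without RAV1 over-expression replicate 1 (which enters the shared estimate of spread) and 10 without RAV1 over-expression replicate 3. The 23 lower calls in RAV1 over-expression stood between 17 (without wild type replicate 2) and 24. Without RAV1 over-expression replicate 3 and wild type replicate 3 together, 20 genes were lower and none higher in RAV1 over-expression, and 12 were lower in bes1-D. In the direct comparison the median moved to -0.05 without RAV1 over-expression replicate 3. Scaling also mattered there: trimmed-mean scaling moved the median of all loci from 0.19 to 0.04, and the calls among the 32 genes became 14 lower and 2 higher. Over all loci, trimmed-mean scaling gave 2116 lower and 1947 higher calls in RAV1 over-expression against wild type (1581 and 2960 as deposited). It gave 749 lower and 601 higher calls in bes1-D against wild type (1139 and 433 as deposited), and 2945 lower and 2628 higher calls between the lines (2084 and 5520 as deposited).

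Summed over each stage, the levels put numbers on the same picture. FPKM is a value per transcript length and can be added over genes. All 33 genes together measured 2574, 2767 and 2052 FPKM in RAV1 over-expression, 2950, 2982 and 3064 FPKM in bes1-D and 3805, 3740 and 3360 FPKM in wild type (replicates 1 to 3 in each, as in all such triplets that follow). The 3 groups did not overlap, with RAV1 over-expression lowest and wild type highest. As a share of all FPKM in a library, the set took 0.275% ± 0.040 in RAV1 over-expression, 0.323% ± 0.00717 in bes1-D and 0.394% ± 0.0278 in wild type (SD, n = 3 each). The aliphatic core sum reached 61.6% ± 12 of the wild-type mean in RAV1 over-expression, against 89.4% ± 3.66 in bes1-D. GSTU20 alone gave 494 of the mean 820 FPKM of this sum in RAV1 over-expression. Its part was 728 of 1190 FPKM in bes1-D and 706 of 1331 FPKM in wild type. GSTU20 was therefore the largest part of the sum in each group. Its mean did not fall in bes1-D, so the lower sum there came from the other core genes. In RAV1 over-expression both GSTU20 and the other core genes were lower. The elongation sum reached 69.2% ± 10.6 in RAV1 over-expression, against 76.5% ± 0.857 in bes1-D, and with trimmed-mean scaling these were 64.7% and 80.4%. For the shared core the values were 72.8% ± 9.27 and 80.6% ± 5.12, and for side-chain modification 73.2% ± 2.07 and 83.6% ± 1.60, in the same order of lines. The transporter sum was the exception, at 138% ± 21.4 of wild type for RAV1 over-expression and 91.6% ± 6.62 for bes1-D.

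**Figure D2:**
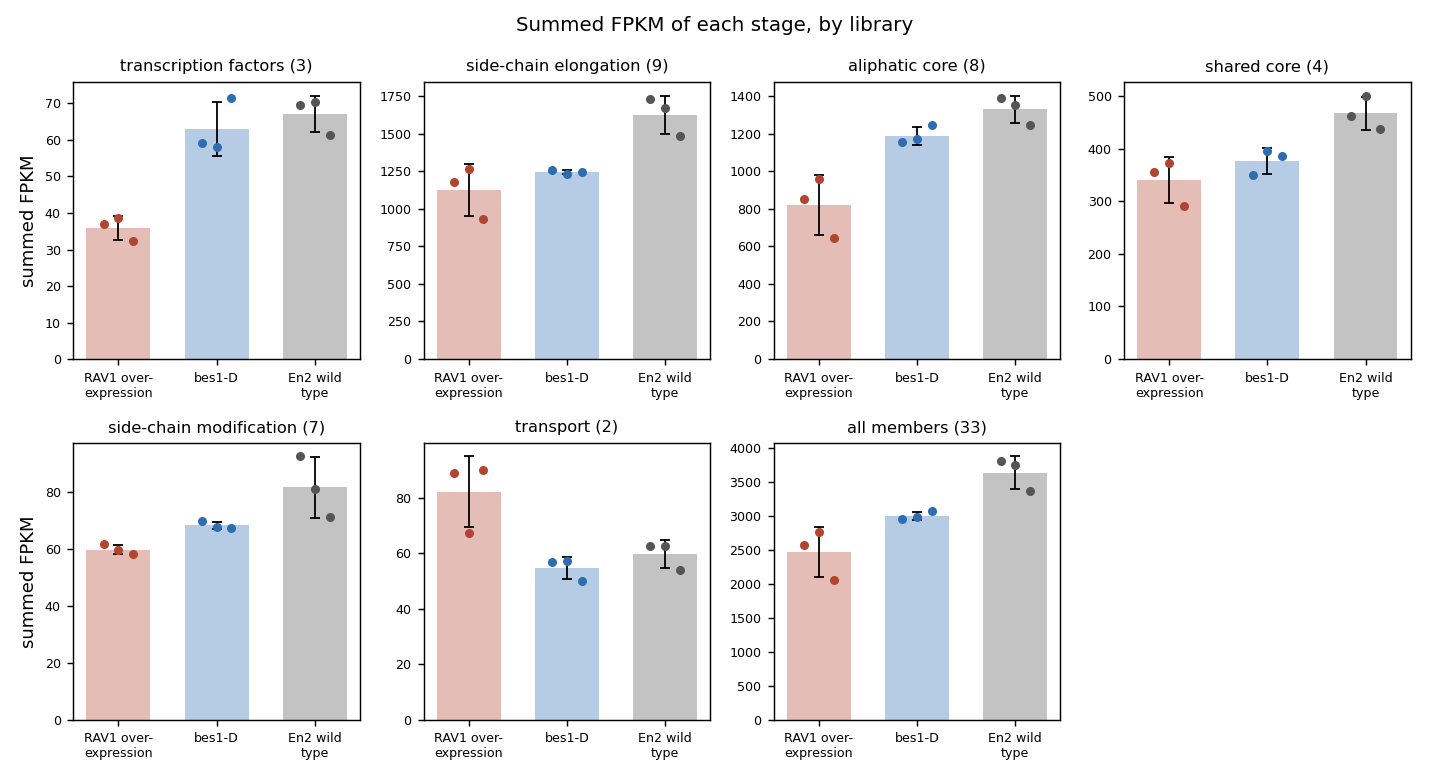
Summed FPKM of the genes of each stage in each library (points), with group means (bars) and SD (n = 3 per group); the number of genes is in each panel title. For all 33 genes the RAV1 over-expression libraries lie between 2052 and 2767 FPKM, bes1-D between 2950 and 3064 FPKM and En2 wild type between 3360 and 3805 FPKM, while for the transporters RAV1 over-expression is highest and bes1-D overlaps wild type.

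Of the transcription factors, MYB28 differed between the lines. MYB28 (AT5G61420; chromosome 5, 24689069 to 24691187, minus strand, TAIR10.1), the main activator of the pathway, measured 36.5, 38.0 and 32.3 FPKM in RAV1 over-expression, 58.5, 57.2 and 71.0 FPKM in bes1-D and 63.8, 66.4 and 59.4 FPKM in wild type. All 3 over-expression libraries lay below all 6 others, while bes1-D and wild type overlapped. Set against bes1-D, MYB28 was lower in RAV1 over-expression by a log2 difference of -0.79 (SE 0.10, adjusted p = 0.000503), and its log2 change in bes1-D against wild type was -0.03 (95% confidence interval -0.26 to 0.21, adjusted p = 0.913). MYB29 (AT5G07690; chromosome 5, 2446669 to 2448584) was scarce everywhere, at 0.48, 0.57 and 0 FPKM in RAV1 over-expression, 0.67, 0.32 and 0.47 FPKM in bes1-D and 5.06, 3.38 and 1.5 FPKM in wild type. Both lines lay below every wild-type library, and the wild-type libraries themselves differed widely. It was called lower in RAV1 over-expression (log2 change -1.61, SE 0.31, adjusted p = 0.00518) and in bes1-D (-1.45, SE 0.31, adjusted p = 0.02). The bes1-D call was lost with a pseudocount of 0.1 (adjusted p = 0.0713) and without bes1-D replicate 2 or 3 (up to 0.0674). The lines did not pass the test against each other in MYB29 (log2 difference -0.16, 95% confidence interval -0.84 to 0.52, adjusted p = 0.696). MYB76 (AT5G07700), its neighbour on the chromosome, did not exceed 0.70 FPKM in any library.

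Elongation begins with BCAT4, a cytosolic aminotransferase that turns methionine into its 2-oxo acid, and BAT5, which carries the acid into the chloroplast. BCAT4 measured 221, 231 and 176 FPKM in RAV1 over-expression, 193, 212 and 228 FPKM in bes1-D and 319, 305 and 257 FPKM in wild type. Both lines lay below every wild-type library and overlapped with each other. BCAT4 fell in RAV1 over-expression by 0.49 on the log2 scale (SE 0.13, adjusted p = 0.0196) and in bes1-D by 0.47 (SE 0.13, adjusted p = 0.0459). BAT5 averaged 29.7 ± 7.89 FPKM in RAV1 over-expression, 38.4 ± 5.74 FPKM in bes1-D and 57.6 ± 11.4 FPKM in wild type (SD, n = 3 each). It fell in RAV1 over-expression (log2 change -0.95, adjusted p = 0.00923), and its change in bes1-D was -0.57 (adjusted p = 0.122). The BCAT4 calls were fragile: in RAV1 over-expression it was lost without wild type replicate 1 or 2 or RAV1 over-expression replicate 3 (values of 0.0669 to 0.0734). In bes1-D it was lost without wild type replicate 1 or 2, RAV1 over-expression replicate 1 or bes1-D replicate 1 or 2 (0.0733 to 0.152), and under either scaling (0.0568 and 0.0869), with no filter (0.067) or with plain eBayes (0.0705).

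MAM1 and MAM3 are the methylthioalkylmalate synthases, which condense the oxo acid with acetyl-CoA and thereby set chain length. MAM1 is known for short chains and MAM3 for the whole range including long chains. The genes stand 11144 bases apart on chromosome 5 (MAM1, AT5G23010, 7703041 to 7706973; MAM3, AT5G23020, 7718118 to 7721866; plus strand, TAIR10.1) and share 83.8% of their aligned coding bases. MAM1 measured 125, 140.5 and 95.4 FPKM in RAV1 over-expression, 182, 176 and 165 FPKM in bes1-D and 213, 209 and 175 FPKM in wild type. Every over-expression library lay below the other 6, and bes1-D overlapped with wild type. MAM3 measured 124, 146 and 94.0 FPKM in RAV1 over-expression, 89.0, 94.8 and 89.3 FPKM in bes1-D and 143, 135 and 137 FPKM in wild type. Here bes1-D stood below the wild type and RAV1 over-expression overlapped with both. MAM1 fell in RAV1 over-expression by 0.73 on the log2 scale against wild type (SE 0.14, adjusted p = 0.00472) and by 0.55 against bes1-D (adjusted p = 0.0113). MAM3 fell in bes1-D by 0.60 (SE 0.14, adjusted p = 0.0264), and its change in RAV1 over-expression was -0.21 (95% confidence interval -0.51 to 0.09, adjusted p = 0.285). The MAM3 call in bes1-D was lost without any 1 of the wild-type or bes1-D libraries (adjusted p from 0.0585 to 0.0886). MAM3 was higher in RAV1 over-expression libraries than in those of bes1-D (log2 difference 0.39, adjusted p = 0.0439), but not when any library other than RAV1 over-expression replicate 3 was left out (0.0595 to 0.132), under trimmed-mean (0.27) or quantile (0.124) scaling, with no filter (0.0628), with plain eBayes (0.0622) or with only the 6 libraries compared (0.0837).

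The 250 bases before the annotated start of a few of these genes are printed so that their sequences can be read beside the levels, in the RefSeq TAIR10.1 assembly of the Columbia accession and 5′ to 3′ on the strand of the gene. Capitals mark matches, on either strand, to CAACA and CACCTG, which the AP2 and B3 parts of RAV1 are known to bind, to the E-box CANNTG (which includes CACCTG and CACGTG) bound by BES1, and to the brassinosteroid response element CGTGTG or CGTGCG. The window of MAM1 (chr5:7702791-7703040) holds 1 E-box and none of the other motifs:
MAM1: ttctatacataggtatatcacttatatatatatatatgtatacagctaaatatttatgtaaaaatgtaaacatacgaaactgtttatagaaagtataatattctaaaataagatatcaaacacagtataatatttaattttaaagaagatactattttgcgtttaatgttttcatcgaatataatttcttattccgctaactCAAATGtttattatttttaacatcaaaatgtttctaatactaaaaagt
Among 27444 such windows of annotated genes, 55.3% hold CANNTG, 47.4% CAACA, 6.71% CGTGTG or CGTGCG, 6.49% CACGTG and 2.57% CACCTG. Among the 33 pathway genes the numbers were 19 with CANNTG, 13 with CAACA, 2 with CGTGTG or CGTGCG (IPMI1 and IPMI2), 3 with CACGTG (IPMI LSU1, CYP83A1 and SUR1) and 1 with CACCTG (AOP3). These are matches of letters in short windows of a reference accession and say nothing of binding.

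The isomerase and dehydrogenase steps follow. IPMI LSU1 is the large isomerase subunit that leucine synthesis also uses, and IPMI1 and IPMI2 are small subunits assigned to methionine elongation. IPMI LSU1 (AT4G13430) averaged 264 ± 15.8 FPKM in RAV1 over-expression, 273 ± 8.94 FPKM in bes1-D and 308 ± 3.40 FPKM in wild type (SD, n = 3 each), and was not called in either line (log2 changes -0.22 and -0.18, adjusted p = 0.0627 and 0.206). It was called lower in RAV1 over-expression with trimmed-mean scaling (-0.32, adjusted p = 0.019), with only the 6 libraries compared in the fit (adjusted p = 0.0379), and without bes1-D replicate 3 (0.0321). IPMI2 (AT2G43100) measured 71.8, 85.9 and 46.4 FPKM in RAV1 over-expression, 117, 103 and 121 FPKM in bes1-D and 162, 154 and 132.5 FPKM in wild type. The 3 groups did not overlap. IPMI2 fell by 1.16 on the log2 scale in RAV1 over-expression against wild type (SE 0.19, adjusted p = 0.00278) and by 0.77 against bes1-D (adjusted p = 0.0111). Its change in bes1-D was -0.39 (adjusted p = 0.256).

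IPMI1 (AT3G58990) measured 70.3, 70.5 and 47.9 FPKM in RAV1 over-expression, 62.4, 57.9 and 67.3 FPKM in bes1-D and 124, 107 and 82.5 FPKM in wild type. Both lines lay below the wild type at nearly equal levels. The log2 change of IPMI1 was -0.73 in RAV1 over-expression (SE 0.18, adjusted p = 0.0152) and -0.72 in bes1-D (SE 0.18, adjusted p = 0.0358). The call in bes1-D was lost without 6 of the 9 libraries in turn (wild type 1 and 2, RAV1 over-expression 1 and each of bes1-D, adjusted p from 0.0504 to 0.117) and under trimmed-mean scaling (0.058), quantile normalization (0.0586), no filter (0.0573) or plain eBayes (0.054). The call in RAV1 over-expression was lost without wild type replicate 1 or 2 (up to 0.0551). IPMDH1 (AT5G14200), the dehydrogenase, fell in RAV1 over-expression (log2 change -0.79, adjusted p = 0.00875) and had a change of -0.54 in bes1-D (adjusted p = 0.0827, but 0.0338 with only the 6 libraries compared). BCAT3 (AT3G49680), the chloroplast aminotransferase that closes the cycle, fell in RAV1 over-expression (-0.37, adjusted p = 0.00894, but 0.0776 without both replicate 3 libraries) and had a change of -0.27 in bes1-D (adjusted p = 0.0668). In all, 7 of 9 elongation genes were lower in RAV1 over-expression (median log2 change -0.73) and 3 of 9 in bes1-D (median -0.47). Among all loci tested, 8.01% were called lower in RAV1 over-expression (median 0.09) and 5.77% in bes1-D (median -0.06). The 3 bes1-D calls (BCAT4, MAM3 and IPMI1) were each lost when some single libraries were left out.

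The core steps assigned to aliphatic substrates were lower in RAV1 over-expression for 8 of 8 genes, with log2 changes from -1.47 to -0.53 and a median of -0.98. In bes1-D 2 of the 8 were lower, CYP79F2 and SOT17, and the median was -0.34. For comparison, 8.01% of all loci tested were called lower in RAV1 over-expression, where their median was 0.09. The bes1-D share of lower calls over all loci was 5.77%, with a median of -0.06. The entry enzymes CYP79F1 (AT1G16410, chromosome 1, 5608682 to 5612064) and CYP79F2 (AT1G16400, 5605044 to 5607498), which form aldoximes, stand in tandem on the plus strand, 1183 bases apart. CYP79F1 is known to accept short and long chains and CYP79F2 long ones. CYP79F1 measured 25.5, 25.9 and 20.3 FPKM in RAV1 over-expression, 75.6, 58.1 and 59.6 FPKM in bes1-D and 69.9, 79.8 and 55.4 FPKM in wild type. The over-expression libraries stood far below all others, and bes1-D spanned the same range as wild type. CYP79F2 measured 26.3, 35.1 and 17.0 FPKM in RAV1 over-expression, 27.2, 29.5 and 25.1 FPKM in bes1-D and 60.8, 47.6 and 45.8 FPKM in wild type. For this copy both lines lay below every wild-type library and overlapped with each other.

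CYP79F1 differed between the lines by a log2 difference of -1.39 (RAV1 over-expression minus bes1-D, SE 0.15, adjusted p = 0.000182), whereas its change in bes1-D against wild type was -0.08 (95% confidence interval -0.42 to 0.26, adjusted p = 0.813). CYP79F2 fell in RAV1 over-expression by 1.00 (SE 0.22, adjusted p = 0.01) and in bes1-D by 0.88 (SE 0.22, adjusted p = 0.0371), with a log2 difference of -0.11 between the lines (95% confidence interval -0.60 to 0.37, adjusted p = 0.699). The bes1-D call of CYP79F2 was lost when any library other than RAV1 over-expression replicates 2 and 3 was left out (adjusted p from 0.0615 to 0.122), and under trimmed-mean scaling (0.0574), quantile normalization (0.0589), no filter (0.0575) or plain eBayes (0.0518). The coding sequences of the pair are 91.9% identical, with identical runs of up to 100 bases, which is the length of a read. How the authors' counting divided reads that match both copies is not given in the sources used here, so the split between them is uncertain. The windows before CYP79F1 (chr1:5608432-5608681) and CYP79F2 (chr1:5604794-5605043) hold none of the motifs, and are printed because these neighbours moved apart in bes1-D:
CYP79F1: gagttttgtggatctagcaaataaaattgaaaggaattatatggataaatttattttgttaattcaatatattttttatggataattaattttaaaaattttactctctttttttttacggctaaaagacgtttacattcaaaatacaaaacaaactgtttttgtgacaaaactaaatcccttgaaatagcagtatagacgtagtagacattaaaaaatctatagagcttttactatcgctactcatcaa
CYP79F2: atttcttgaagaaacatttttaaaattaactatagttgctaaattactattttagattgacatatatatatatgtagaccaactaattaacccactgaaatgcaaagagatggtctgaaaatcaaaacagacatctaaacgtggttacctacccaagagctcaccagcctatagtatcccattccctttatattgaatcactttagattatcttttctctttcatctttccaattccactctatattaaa
Of the 33 genes, 7 held none of the motifs in their windows. Besides this pair they were MYB28, BCAT4, IPMDH1, GTR1 and GTR2.

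CYP83A1 (AT4G13770), which oxidises the aliphatic aldoximes, measured 103, 118 and 86.9 FPKM in RAV1 over-expression, 155, 138 and 117 FPKM in bes1-D and 187, 179 and 163 FPKM in wild type. Its mean was lowest in RAV1 over-expression, with bes1-D in between, and both lines lay below every wild-type library. The lines overlapped, as RAV1 over-expression replicate 2 lay above bes1-D replicate 3. CYP83A1 fell by 0.78 in RAV1 over-expression against wild type (SE 0.13, adjusted p = 0.00286) and by 0.41 against bes1-D (adjusted p = 0.0335). The difference between the lines was not called without RAV1 over-expression replicate 1 or 3 or bes1-D replicate 1 or 2 (adjusted p 0.0789 to 0.135), nor with only the 6 libraries compared (0.0631). The glutathione transferases came next. GSTF11 (AT3G03190) averaged 11.3 ± 4.35 FPKM in RAV1 over-expression, 15.8 ± 2.96 FPKM in bes1-D and 30.1 ± 5.81 FPKM in wild type. It fell in RAV1 over-expression (log2 change -1.39, adjusted p = 0.00653), and its change of -0.89 in bes1-D was not called (adjusted p = 0.0778, but 0.0226 with only the 6 libraries compared).

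GSTU20 (AT1G78370), the most abundant transcript of the set, measured 511, 582 and 390.3 FPKM in RAV1 over-expression, 672, 717 and 795 FPKM in bes1-D and 714, 709 and 694 FPKM in wild type. RAV1 over-expression lay below the other groups, which overlapped. Its log2 change was -0.53 in RAV1 over-expression (adjusted p = 0.0187) and 0.04 in bes1-D (95% confidence interval -0.26 to 0.34), and the lines differed by -0.57 (adjusted p = 0.00858). The call against wild type was lost without wild type replicate 1 or 2 (adjusted p from 0.0567 to 0.0946, including the setting without both replicate 3 libraries). UGT74C1 (AT2G31790), a glucosyltransferase, fell in RAV1 over-expression (-0.60, adjusted p = 0.0121, but 0.0527 without wild type replicate 2) and had a change of -0.31 in bes1-D (adjusted p = 0.204). Several genes of the set overlap another annotated gene in TAIR10.1, namely BCAT4, IPMDH1, GSTF11, UGT74C1, SOT18, FMO GS-OX5, GTR1 and GTR2. That was the case for 8 of the 33, and without a statement that counting used strand their reads cannot be told apart from those of the neighbour.

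The last core step is sulfation. SOT17 and SOT18 prefer aliphatic substrates and SOT16, placed with the shared core, prefers indole ones. SOT17 (AT1G18590; chromosome 1, 6398531 to 6400029, plus strand) measured 29.3, 38.0 and 21.6 FPKM in RAV1 over-expression, 34.0, 33.4 and 37.4 FPKM in bes1-D and 77.6, 69.6 and 64.4 FPKM in wild type. It lay far below the wild type in both lines, and the lines overlapped. Its log2 change was -0.99 in bes1-D (SE 0.17, adjusted p = 0.00781), beside -1.25 in RAV1 over-expression (adjusted p = 0.00105), with -0.26 between the lines (95% confidence interval -0.64 to 0.11, adjusted p = 0.23, but 0.0293 without RAV1 over-expression replicate 2). SOT18 (AT1G74090; chromosome 1, 27862814 to 27864193) measured 73.8, 76.2 and 51.7 FPKM in RAV1 over-expression, 97.1, 103 and 115 FPKM in bes1-D and 143, 129 and 119 FPKM in wild type. The 3 groups did not overlap. SOT18 fell in RAV1 over-expression against wild type (log2 change -0.96, SE 0.14, adjusted p = 0.00173) and against bes1-D (-0.65, adjusted p = 0.00637).

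SOT16 (AT1G74100; chromosome 1, 27864345 to 27865694, minus strand), which lies 151 bases from SOT18, measured 120.2, 111 and 110.3 FPKM in RAV1 over-expression, 61.1, 70.7 and 79.9 FPKM in bes1-D and 106, 120.0 and 108 FPKM in wild type. Only bes1-D stood apart, below all 6 other libraries. SOT16 fell in bes1-D by 0.66 on the log2 scale (SE 0.11, adjusted p = 0.00603). It was higher in RAV1 over-expression libraries than in those of bes1-D by 0.69 (SE 0.11, adjusted p = 0.00101), and its change in RAV1 over-expression against wild type was 0.03 (95% confidence interval -0.21 to 0.26, adjusted p = 0.87). With trimmed-mean scaling that last value was -0.07. The window before SOT17 (chr1:6398281-6398530) holds 2 matches to CAACA and 3 to CANNTG, 1 of each overlapping, and that before SOT16 (chr1:27865695-27865944) holds 1 of each. They are shown because SOT17 was called lower than wild type in both lines and SOT16 in bes1-D alone:
SOT17: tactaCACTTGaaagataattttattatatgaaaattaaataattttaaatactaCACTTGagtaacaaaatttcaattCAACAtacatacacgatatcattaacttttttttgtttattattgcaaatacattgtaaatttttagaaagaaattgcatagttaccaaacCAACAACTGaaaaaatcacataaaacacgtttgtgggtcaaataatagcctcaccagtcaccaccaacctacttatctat
SOT16: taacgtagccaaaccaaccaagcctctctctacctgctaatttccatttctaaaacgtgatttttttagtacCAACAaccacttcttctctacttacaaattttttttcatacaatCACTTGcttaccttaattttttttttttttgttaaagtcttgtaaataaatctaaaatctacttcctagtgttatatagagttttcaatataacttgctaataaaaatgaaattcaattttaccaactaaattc
The coding sequences of SOT16 and SOT18 are 80.5% identical and those of SOT17 and SOT18 78.9%, with no identical run over 32 bases, far shorter than a read.

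The other shared core enzymes serve both the aliphatic and the indole branch. GGP1 (AT4G30530), the peptidase that trims the glutathione conjugate, measured 147, 163 and 105 FPKM in RAV1 over-expression, 184, 222 and 213 FPKM in bes1-D and 216, 224 and 199 FPKM in wild type. RAV1 over-expression lay below the other groups, which overlapped. GGP1 fell in RAV1 over-expression against wild type (log2 change -0.64, adjusted p = 0.0125, but 0.0503 without wild type replicate 2) and against bes1-D (-0.59, adjusted p = 0.0115). SUR1 (AT2G20610), the C-S lyase, measured 68.9, 72.9 and 55.8 FPKM in RAV1 over-expression, 70.5, 70.1 and 64.4 FPKM in bes1-D and 102, 111 and 95.3 FPKM in wild type. Both lines lay below the wild type and overlapped with each other. SUR1 fell by 0.64 in RAV1 over-expression (SE 0.11, adjusted p = 0.0031) and by 0.58 in bes1-D (SE 0.11, adjusted p = 0.0123, and 0.0581 without wild type replicate 2). UGT74B1 (AT1G24100), a glucosyltransferase, averaged 22.3 ± 3.50 FPKM in RAV1 over-expression, 31.4 ± 2.83 FPKM in bes1-D and 39.9 ± 5.80 FPKM in wild type (SD, n = 3 each). It fell in RAV1 over-expression against wild type (-0.82, adjusted p = 0.00255) and against bes1-D (-0.49, adjusted p = 0.0172). The difference from bes1-D was not called without RAV1 over-expression replicate 1 or 3 or bes1-D replicate 1 (adjusted p 0.0538 to 0.0661).

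**Figure D3:**
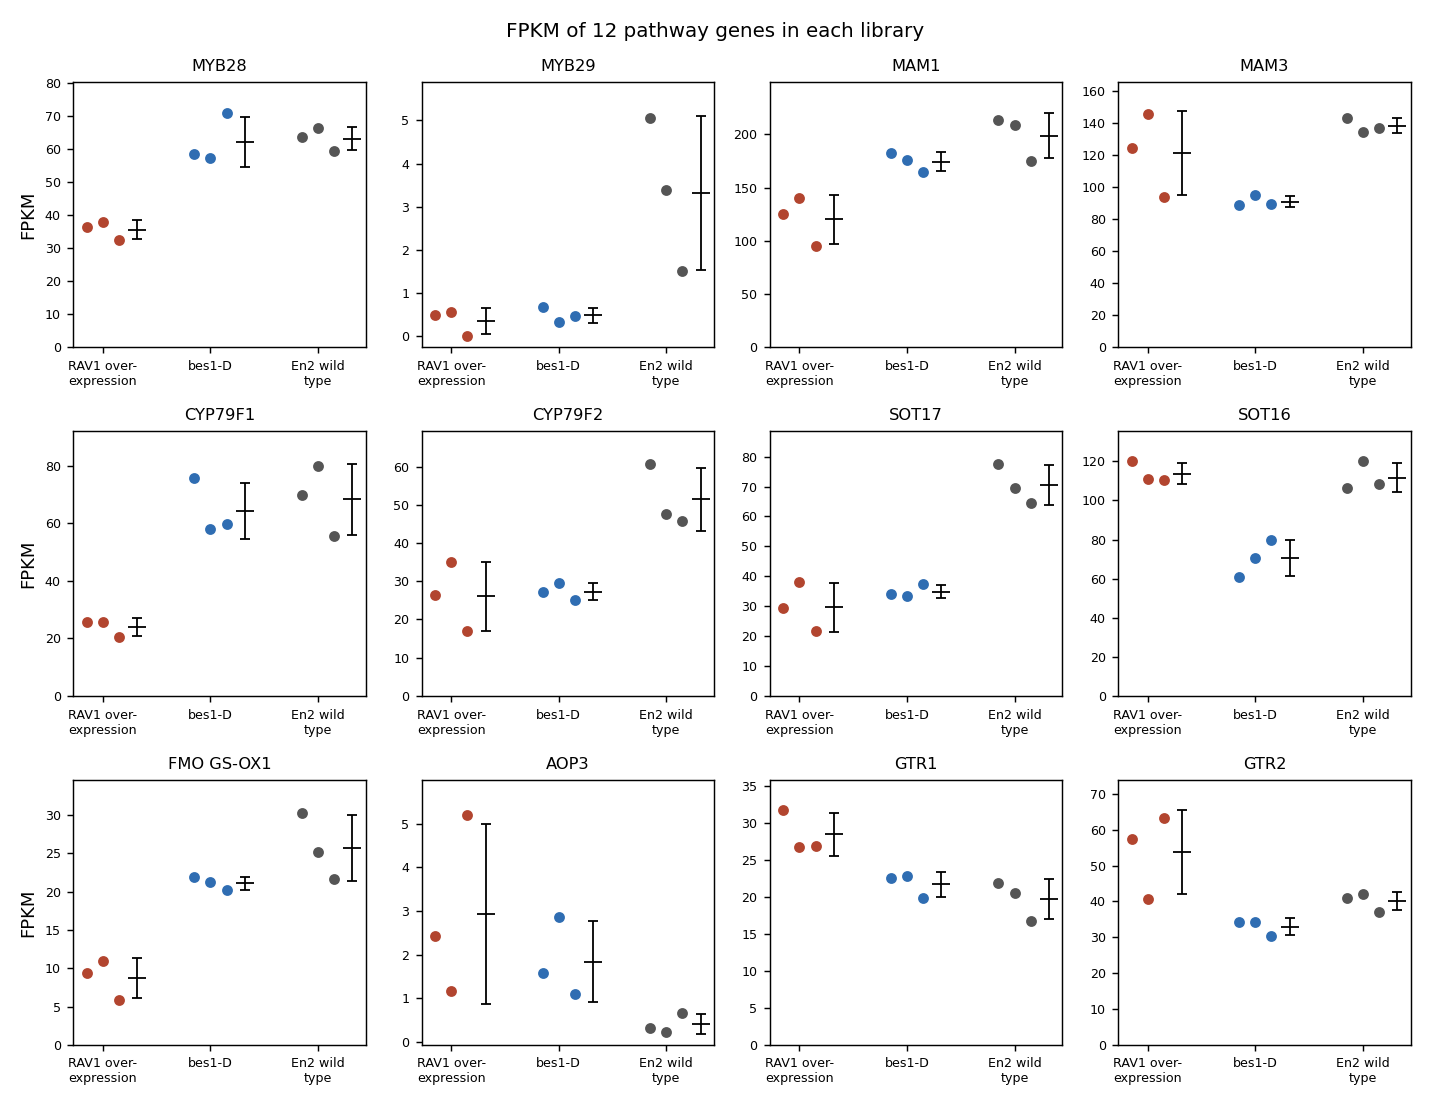
FPKM of 12 genes of the pathway in each library (points, replicates 1 to 3 from left to right), with the group mean and SD (n = 3) beside them. MYB28 and CYP79F1 are low in RAV1 over-expression alone, SOT16 is low in bes1-D alone, and CYP79F2 and SOT17 are low in both lines.

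Side-chain modification was divided between its members. The FMO GS-OX enzymes are flavin monooxygenases that oxidise methylthioalkyl to methylsulfinylalkyl glucosinolates. FMO GS-OX1 (AT1G65860) measured 9.41, 10.9 and 5.84 FPKM in RAV1 over-expression, 21.9, 21.3 and 20.2 FPKM in bes1-D and 30.2, 25.3 and 21.7 FPKM in wild type. The over-expression libraries were all below the rest, and bes1-D overlapped with wild type. It fell by 1.48 in RAV1 over-expression against wild type (SE 0.19, adjusted p = 0.000914) and by 1.22 against bes1-D (adjusted p = 0.00114), with -0.26 in bes1-D against wild type (adjusted p = 0.457). FMO GS-OX3 (AT1G62560) measured 4.64, 3.74 and 3.26 FPKM in RAV1 over-expression, 6.34, 6.02 and 6.69 FPKM in bes1-D and 13.2, 10.6 and 7.42 FPKM in wild type. The groups were ordered without overlap. It fell in RAV1 over-expression against wild type (-1.20, adjusted p = 0.00192). Against bes1-D the log2 difference was -0.60 (adjusted p = 0.0278), a call lost without RAV1 over-expression replicate 2 or 3 or any bes1-D library (0.0525 to 0.0873).

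The remaining FMO genes were not called in any comparison with all libraries in the fit. FMO GS-OX2 (AT1G62540) averaged 5.11 ± 0.489 FPKM in RAV1 over-expression, 3.58 ± 1.05 FPKM in bes1-D and 3.95 ± 0.684 FPKM in wild type, and the lines differed by a called 0.62 without bes1-D replicate 2 (adjusted p = 0.0217). FMO GS-OX4 (AT1G62570) averaged 12.7 ± 0.535, 10.3 ± 1.01 and 9.68 ± 1.78 FPKM in the same order, with a log2 change of 0.38 in RAV1 over-expression (adjusted p = 0.06, but 0.024 without wild type replicate 1). FMO GS-OX5 (AT1G12140) averaged 25.5 ± 1.03, 22.5 ± 1.66 and 26.9 ± 1.28 FPKM. FMO GS-OX2, 3 and 4 stand in 1 cluster on chromosome 1. FMO GS-OX2 and FMO GS-OX3 share 85.0% of their coding bases, with identical runs of up to 49 bases.

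AOP2 and AOP3 encode dioxygenases that make alkenyl and hydroxyalkyl side chains, and natural accessions are known to express different ones of them. AOP2 (AT4G03060; chromosome 4, 1351688 to 1354096), annotated as a pseudogene in the Columbia reference, measured 1.05, 1.49 and 0.56 FPKM in RAV1 over-expression, 2.08, 2.41 and 3.66 FPKM in bes1-D and 4.85, 5.70 and 3.54 FPKM in wild type. It was lowest in RAV1 over-expression, and bes1-D overlapped with wild type through 1 library. AOP2 fell in RAV1 over-expression against wild type (log2 change -1.49, SE 0.23, adjusted p = 0.00193) and against bes1-D (-0.87, adjusted p = 0.0142, but 0.0503 without bes1-D replicate 3). AOP3 (AT4G03050; chromosome 4, 1343845 to 1346436) measured 2.43, 1.16 and 5.20 FPKM in RAV1 over-expression, 1.57, 2.87 and 1.09 FPKM in bes1-D and 0.33, 0.24 and 0.66 FPKM in wild type. Both lines lay above every wild-type library at low levels. No wild-type library reached 1 FPKM, so AOP3 passed the filter only through the lines, which favoured its difference from wild type. AOP3 rose in RAV1 over-expression (log2 change 1.36, SE 0.36, adjusted p = 0.0227). The call was lost without wild type replicate 1 or 2 or RAV1 over-expression replicate 1 or 3 (values of 0.0624 to 0.0788). Its change in bes1-D was 0.97 (adjusted p = 0.129), and the lines did not differ from each other by the test (0.38, 95% confidence interval -0.42 to 1.18). Reads of the Enkheim background were aligned to the Columbia-based genome, in all groups alike.

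Of the importers GTR1 and GTR2, GTR1 was called higher than wild type in RAV1 over-expression. Both genes overlap another annotated gene, so their values may include reads of the neighbour. GTR1 (AT3G47960) measured 31.8, 26.7 and 26.9 FPKM in RAV1 over-expression, 22.6, 22.8 and 19.8 FPKM in bes1-D and 21.8, 20.6 and 16.7 FPKM in wild type. The over-expression libraries were above all others, which overlapped. GTR1 rose by a log2 change of 0.51 against wild type (SE 0.12, adjusted p = 0.0125, but 0.058 without RAV1 over-expression replicate 1 and 0.0686 without both replicate 3 libraries). It was also higher than in bes1-D (0.37, adjusted p = 0.0317), a call lost without RAV1 over-expression replicate 1 or bes1-D replicate 2 or 3 (0.0503 to 0.121) and under trimmed-mean (0.219) or quantile (0.236) scaling. GTR2 (AT5G62680) measured 57.4, 40.8 and 63.2 FPKM in RAV1 over-expression, 34.3, 34.3 and 30.4 FPKM in bes1-D and 40.9, 42.0 and 37.1 FPKM in wild type. RAV1 over-expression replicate 2 lay within the wild-type range and the other two above it. GTR2 was higher in RAV1 over-expression libraries than in those of bes1-D (log2 difference 0.67, SE 0.14, adjusted p = 0.00575), while neither line was called against wild type (0.40, adjusted p = 0.0729, and -0.27, adjusted p = 0.292). Without RAV1 over-expression replicate 2 the first of these was 0.58 and called (adjusted p = 0.00384).

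**Figure D4:**
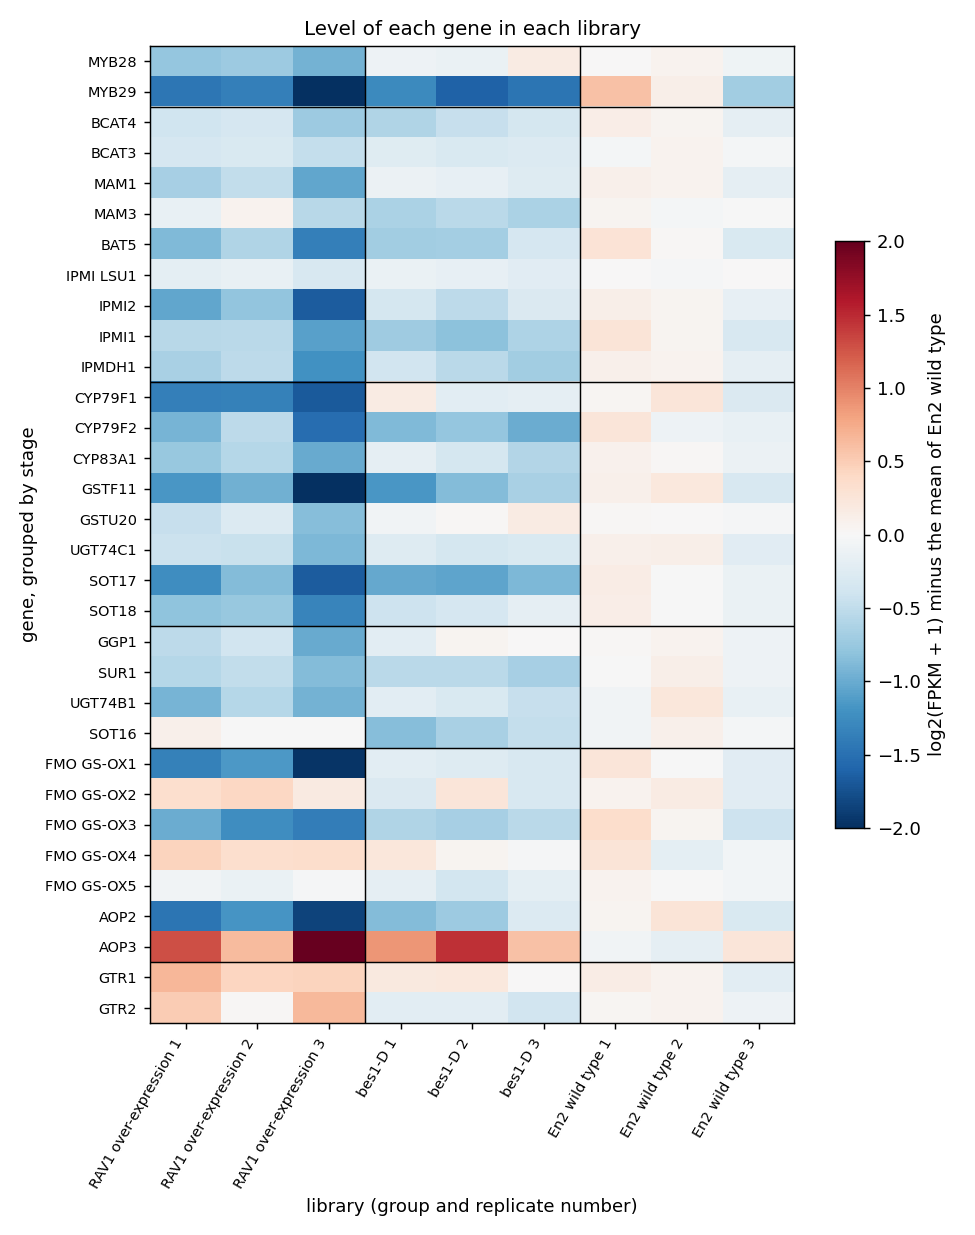
Level of each of the 32 tested genes in each library as log2(FPKM + 1) minus the mean of En2 wild type, ordered by stage; blue is below and red above the wild-type mean, and colours end at 2 in either direction. Apart from MAM3 in replicate 2, every cell from MYB28 to UGT74B1 is on the blue side in the RAV1 over-expression libraries, most of them darkest in replicate 3, while GTR1 and AOP3 are red.

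By the direct test, 12 genes were lower in RAV1 over-expression than in both bes1-D and wild type: MYB28, MAM1, IPMI2, CYP79F1, CYP83A1, GSTU20, SOT18, GGP1, UGT74B1, FMO GS-OX1, FMO GS-OX3 and AOP2. A further 5 were called lower against wild type in RAV1 over-expression only (BCAT3, BAT5, IPMDH1, GSTF11 and UGT74C1), but the lines did not pass the test against each other, so these are not shown to differ between the lines. With trimmed-mean scaling BCAT3 (log2 difference -0.27, adjusted p = 0.0359) and UGT74C1 (-0.45, adjusted p = 0.0352) were called lower in RAV1 over-expression in that test. MYB29 (which passed the filter only through wild type), BCAT4, IPMI1, CYP79F2, SOT17 and SUR1 were called lower in each comparison with wild type and did not pass the test between the lines. All these groupings are descriptions, since the comparisons share libraries. MAM3 and SOT16 were lower in bes1-D than in both other groups. With all libraries, the values as deposited and no replicate block, the 4 genes called in no comparison were IPMI LSU1, FMO GS-OX2, FMO GS-OX4 and FMO GS-OX5. Of these, IPMI LSU1, FMO GS-OX2 and FMO GS-OX4 gained a call under other settings.

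Ratios within a library show how related genes shifted against each other regardless of how the library was scaled. They were computed for 8 pairs and are described without a test, since 3 against 3 libraries cannot give an exact permutation p below 0.1. The CYP79F1 to CYP79F2 ratio was 0.971, 0.737 and 1.19 in RAV1 over-expression, while bes1-D had 2.78, 1.97 and 2.37 and wild type 1.15, 1.68 and 1.21. Only bes1-D stood apart, above all the others. The MAM1 to MAM3 ratio was 1.00, 0.963 and 1.02 in RAV1 over-expression, while bes1-D had 2.05, 1.86 and 1.84 and wild type 1.49, 1.55 and 1.28. Here the 3 groups did not overlap and the lines lay on opposite sides of wild type. The same held for SOT18 to SOT16, with means of 0.590 ± 0.112 in RAV1 over-expression, 1.49 ± 0.0835 in bes1-D and 1.17 ± 0.150 in wild type (SD, n = 3 each). It also held, in the opposite sense, for IPMI1 to IPMI2, with 0.944 ± 0.110, 0.550 ± 0.0141 and 0.695 ± 0.0726 in that order of groups.

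The ratio of SOT17 to SOT16 was lowest in RAV1 over-expression (0.261 ± 0.0749), higher in bes1-D (0.498 ± 0.0496) and highest in wild type (0.635 ± 0.0832), without overlap. FMO GS-OX1 to FMO GS-OX5 was 0.346 ± 0.115 in RAV1 over-expression, against 0.941 ± 0.0845 in bes1-D and 0.952 ± 0.114 in wild type. BCAT4 to BCAT3 overlapped in all groups, at 1.68 ± 0.128 in RAV1 over-expression, 1.58 ± 0.155 in bes1-D and 1.82 ± 0.203 in wild type. GTR1 to GTR2 was 0.545 ± 0.115 in RAV1 over-expression, 0.659 ± 0.00762 in bes1-D and 0.491 ± 0.0413 in wild type, with bes1-D above every wild-type library.

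**Figure D5:**
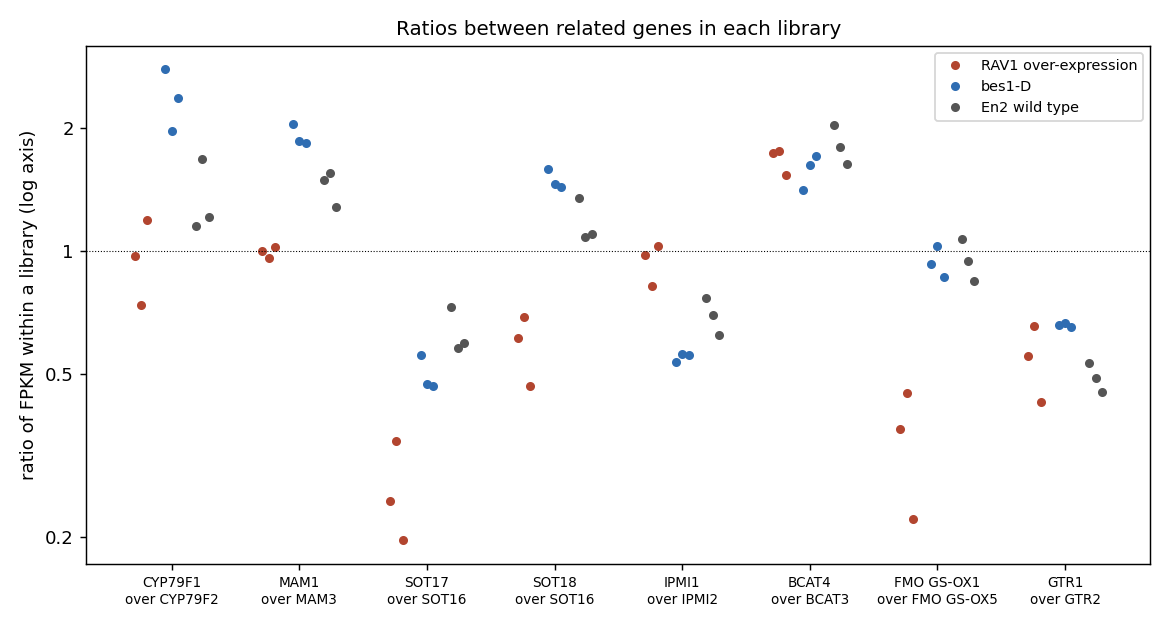
Ratio of FPKM between related genes within each library (log axis), for 8 pairs, with RAV1 over-expression, bes1-D and En2 wild type from left to right in each pair. For MAM1 over MAM3 the RAV1 over-expression libraries lie at 0.963 to 1.02, bes1-D at 1.84 to 2.05 and wild type at 1.28 to 1.55.

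Genes around the pathway were followed as lists. Of 10 tested regulators outside the set, 2 were lower and 2 higher in RAV1 over-expression, beside 8.01% lower and 15% higher over all loci. The calmodulin-binding protein IQD1 fell (log2 change -1.01, adjusted p = 0.0119), as did the jasmonate-pathway factor MYC4 (-0.52, adjusted p = 0.02), a partner of the MYB activators, while its relative MYC3 rose (0.48, adjusted p = 0.0125). MYB51, an activator of the indole branch, rose as well (0.99, adjusted p = 0.0232). In bes1-D, MYC2 measured 15.6, 18.3 and 14.9 FPKM, against 27.1, 25.6 and 21.1 FPKM in wild type. It fell there (-0.56, adjusted p = 0.0379), and RAV1 over-expression stood above bes1-D by 0.91 (adjusted p = 0.00112). SDI1, a sulfur-deficiency protein known to repress aliphatic glucosinolate synthesis, measured 4.89, 6.78 and 4.67 FPKM in bes1-D and 1.41, 3.39 and 0.91 FPKM in wild type. It rose in bes1-D (1.23, adjusted p = 0.0268) and was lower in RAV1 over-expression libraries than in those of bes1-D (-0.91, adjusted p = 0.0276).

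Of 8 tested relatives of the elongation enzymes that serve leucine synthesis or branched-chain amino acid turnover, none was called lower and 2 were higher in RAV1 over-expression by limma, with log2 changes from -0.25 to 1.38. At the shares over all loci of 8.01% and 15%, these counts are near the background. BCAT2, which acts in branched-chain amino acid breakdown, rose to 8.69, 6.19 and 13.1 FPKM in RAV1 over-expression, against 2.53, 2.62 and 3.37 FPKM in wild type (log2 change 1.38, adjusted p = 0.00261). In bes1-D IPMDH3 was the called member (-0.35, adjusted p = 0.0315). Of 15 genes of sulfate activation and glutathione synthesis, 5 were lower in RAV1 over-expression, 2 were lower in the mutant, and none was higher in either, where 8.01% and 5.77% of all loci were called lower. APK2, an adenylyl sulfate kinase that supplies the sulfate donor of the sulfotransferases, measured 54.8, 60.5 and 35.9 FPKM in RAV1 over-expression, 61.8, 64.6 and 70.9 FPKM in bes1-D and 112, 116 and 95.6 FPKM in wild type. Both lines were below the wild type, and APK2 fell in RAV1 over-expression (-1.11, adjusted p = 0.00189) and in bes1-D (-0.70, adjusted p = 0.034). APR3, a reductase of the competing primary assimilation branch, fell in RAV1 over-expression (-1.68, adjusted p = 0.00202), and PAPST1, which exports the sulfate donor from plastids, fell in bes1-D (-0.59, adjusted p = 0.0047).

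Of 6 methionine supply genes, 1 was lower and 1 higher in RAV1 over-expression, and 1 was lower in bes1-D. With shares over all loci of 8.01% lower and 15% higher, and 5.77% lower in bes1-D, such counts are near the background. In RAV1 over-expression the methionine synthase ATMS2 was lower (-0.83, adjusted p = 0.0138) and the methionine-degrading lyase MGL higher (1.08, adjusted p = 0.00597). In bes1-D CGS1, the committed enzyme of methionine synthesis, was lower (-0.53, adjusted p = 0.0171). The indole branch, which joins the set at the shared core, had 3 of 11 genes lower and 1 higher in RAV1 over-expression, and 5 lower and none higher in bes1-D. Over all loci the shares were 8.01% lower and 15% higher in RAV1 over-expression, and 5.77% lower and 2.19% higher in bes1-D. Its core P450 CYP83B1, the counterpart of CYP83A1, measured 108, 92.8 and 107 FPKM in RAV1 over-expression, 47.7, 55.9 and 50.7 FPKM in bes1-D and 96.0, 92.2 and 79.1 FPKM in wild type. As with SOT16, bes1-D alone stood below the others, with a log2 change of -0.78 (adjusted p = 0.00268) and a difference of 0.98 between RAV1 over-expression and bes1-D (adjusted p = 0.000142). IGMT1, an indole methyltransferase, rose in RAV1 over-expression (1.94, adjusted p = 0.000258) and CYP81F1 fell there (-1.06, adjusted p = 0.0011), while CYP79B3 fell in bes1-D (-0.81, adjusted p = 0.00655). Of 7 further side-chain, core and transport genes 5 were tested, and FMO GS-OX7 (0.74, adjusted p = 0.00808) and GGP3 (0.33, adjusted p = 0.0286) were higher in RAV1 over-expression. That is 2 of 5, where 15% of all loci were called higher, in a list too short to read as a group.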

How the data were processed

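RNA from whole seedlings of RAV1 over-expression, bes1-D and En2 wild type (3 libraries each, read as paired ends of 100 bases with a TruSeq RNA kit) was analysed from 1 table of FPKM values deposited by the authors. FastQC 0.10.1, TopHat2 and Cufflinks 2.1.1 with the TAIR10 genome are named in the submitters' processing notes. Whether values were scaled further, with which annotation, and how reads that match several genes were treated is not given in the sources used here. FPKM columns summed to 890880 to 971271, with 22241 to 22551 loci above 0 per library. Fragment counts were not used, so the absolute depth stays unknown and counting intervals are left out; the depth relative to En2 wild type replicate 1, estimated from steps among low values, was 82% to 113%. The locus with 1 blank value (AT5G19720) was left out.

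Values were taken as log2(FPKM + 1), which understates changes of low genes. The 19740 loci that reached 1 FPKM in 3 or more libraries were fitted with limma 3.58.1 in R 4.3.3 as group means over all 9 libraries (trend and robust options). Tests were two-sided, and calls were made below 0.05 after Benjamini-Hochberg adjustment across all loci tested. The fit was tested on simulated data. Replicate numbers were not used as a block, since over all loci tested same-numbered libraries did not deviate together (correlations -0.0759 to 0.151). Members, stages and context lists were chosen with earlier results of these data known, so no list has a p of its own. All members are described, and of each context list up to 2 called genes of smallest p per comparison are named. RAV1 checks the label of its line, and MYC4, MYB51, CRB, SESA1, GSL-OH and CYP81F4 were named after their values were seen. Alternatives were other pseudocounts, filters, scalings (trimmed mean, quantile), the 6 libraries compared, a replicate block, plain eBayes and leaving out each library. Gene positions, upstream windows of 250 bases and coding sequences came from RefSeq TAIR10.1 by locus tag, with Biopython 1.88 for alignment; Python 3.11.15, numpy 2.4.6, pandas 2.3.3 and matplotlib 3.10.9 were used.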

Additional observations from a re-analysis of the deposited data

How the results depend on the processing

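The precision rests on 3 libraries per group and unknown absolute depth, and low genes (MYB29, MYB76, AOP2, AOP3) are the least certain. Of RAV1 over-expression against wild type, the number of lower genes (23) stayed within 1.5 times under every setting run. The number of higher genes (2) was 1 with a filter of 5 FPKM and ranged from 0 to 3 when 1 library was left out. Of bes1-D against wild type, the number of lower genes (8) was 5 with no filter, with trimmed-mean scaling, with quantile normalization and with plain eBayes, and ranged from 2 to 10 when 1 library was left out; the number of higher genes was 0 under every setting run. The median log2 change in bes1-D (-0.32) was -0.25 with trimmed-mean scaling and ranged from -0.41 to -0.27 when 1 library was left out. Between RAV1 over-expression and bes1-D, the number of higher genes (4) was 2 with trimmed-mean scaling and with quantile normalization, and ranged from 2 to 4 without 1 library. A setting chosen after seeing the data left out RAV1 over-expression replicate 3 and En2 wild type replicate 3 together. It gave 0 higher genes in RAV1 over-expression and a median of -0.41 in bes1-D. As percent of wild type, the stage sums moved by less than the spread of both groups combined in every setting run, though by more than the SD of the line alone in some: in bes1-D, trimmed-mean scaling gave 86.6% for all genes (82.5% as deposited). Lost calls of single genes stand beside their values; without both replicate 3 libraries, AOP3 against wild type and CYP83A1 and UGT74B1 between the lines were lost too. Leaving out 1 library or that pair also added calls of IPMDH1, GSTF11, FMO GS-OX3, BAT5 and UGT74C1 (all lower) in bes1-D. The causes were not tested.

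Values that changed sign were called under no setting that turned them. In bes1-D against wild type, MYB28 was 0.04 with trimmed-mean scaling, 0.03 with quantile normalization and -0.12 to 0.03 when 1 library was left out. GGP1 was 0.02 with trimmed-mean scaling and -0.10 to 0.03 without 1 library. CYP79F1 ranged from -0.22 to 0.04, GSTU20 from -0.02 to 0.10 and FMO GS-OX4 from -0.01 to 0.22 in that way. In RAV1 over-expression against wild type, SOT16 was -0.07 with trimmed-mean scaling, -0.04 with quantile normalization and -0.01 to 0.08 without 1 library. Between the lines, leaving out 1 library gave -0.28 to 0.04 for MYB29, -0.09 to 0.10 for BCAT4, -0.08 to 0.00 for IPMI LSU1, -0.10 to 0.17 for IPMI1, -0.35 to 0.15 for CYP79F2, -0.14 to 0.05 for SUR1 and -0.01 to 0.75 for AOP3. The turned end of each of these came without RAV1 over-expression replicate 3, and all had the same value without both replicate 3 libraries except MYB29, which then did not reach the filter.

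Over all loci tested, same-numbered libraries did not deviate together, so the numbers were not taken as pairs. Among the 33 genes, replicate 3 was the most often lowest library in each group. It was lowest for 27 genes in RAV1 over-expression and 27 in wild type. In bes1-D it was lowest for 14, beside 9 and 10 for replicates 1 and 2. Whether the numbers mark shared handling was not tested. With a replicate block, the genes lower than wild type numbered 23 for RAV1 over-expression and 8 for bes1-D, as without it. Higher genes numbered 3 in RAV1 over-expression against wild type (FMO GS-OX4 added, adjusted p = 0.0422). Between the lines, 12 were lower and 5 higher (FMO GS-OX2 added, adjusted p = 0.0434). In bes1-D the block took away BCAT4 (adjusted p = 0.0571) and added IPMDH1 (0.0265). Of the 9 libraries, 6 correlated best with a library of their own number, which is a hint from the data and not from the design.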

Other observations

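GSL-OH (AT2G25450), the dioxygenase that hydroxylates alkenyl side chains after AOP2, was the most uneven gene around the pathway. It measured 8.17, 1.27 and 20.8 FPKM in RAV1 over-expression, 4.57, 10.3 and 2.02 FPKM in bes1-D and 77.4, 84.7 and 7.68 FPKM in En2 wild type. Wild type replicate 3 lay within the range of both lines, and the log2 changes of -2.34 for RAV1 over-expression and -2.76 for bes1-D had an SE of 1.16 and were not called (adjusted p = 0.188 and 0.208 by limma). The indole-branch enzyme CYP81F4 had a like spread in wild type (56.0, 68.7 and 18.3 FPKM), with 13.5, 17.4 and 9.51 FPKM in RAV1 over-expression and 19.4, 14.9 and 14.7 FPKM in bes1-D. It was called lower in RAV1 over-expression (log2 change -1.59, adjusted p = 0.0299) and not in bes1-D (-1.30, adjusted p = 0.106). Both genes were chosen after their values were seen, and the source of the spread between wild-type libraries was not tested.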
